A study of Mus musculus with 27 samples.

Results

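Livers that had lost HDAC3 were compared with control livers over all genes measured by RNA sequencing. The comparison takes 10 of the 27 samples of the study, chosen by their labels: 4 livers without HDAC3 (HDAC3 LKO) and 6 controls. The 4 HDAC3 LKO livers came from C57Bl/6 mice with floxed HDAC3 that were given Cre recombinase in an adeno-associated virus of serotype 8 (AAV8), a vector that enters hepatocytes. The 6 controls were given AAV8 with GFP and belonged to 3 floxed lines, with 2 livers each from HDAC3 floxed, SCAP floxed and double floxed mice. All mice had free access to food and were killed 10 days after the injection. The sources used here do not give the promoter that drives Cre. Livers with Cre but without a floxed gene were not analysed here, so an effect of Cre cannot be told apart from loss of HDAC3 in this comparison. A second comparison therefore sets 3 livers lacking both HDAC3 and SCAP (Double LKO) against 4 lacking SCAP alone (SCAP LKO). These 7 samples are all from livers given AAV8 with Cre, and none is among the 10 above.

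HDAC3 is a histone deacetylase that works inside the NCoR and SMRT corepressor complexes. Nuclear receptors such as REV-ERB alpha, the thyroid hormone receptor and PPAR family members bring these complexes to DNA, where the removal of acetyl groups from histones goes along with lower transcription. In mouse liver HDAC3 is known for its control of lipid storage and of genes with a daily rhythm. Genes outside lipid metabolism are the subject here.

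The libraries held 4747602 to 19316642 counts in controls and 5158695 to 8672408 in HDAC3 LKO, and 12009 of 22869 genes had enough counts for the test. All 17 RNA libraries carried the Y-linked gene Ddx3y, with 400 to 2654 counts, and 0 to 3 counts of Xist. On the first principal component of the 10 libraries (33.5% of the variance) controls lay between -20.6 and -8.96 and HDAC3 LKO between 21.2 and 29.6. The second (13.5%) set apart the deepest of these libraries, HDAC3-floxed GFP replicate 1, at 26.7, and HDAC3 LKO replicate 3 at 17.7. Hepatocyte markers, among them Alb, summed to 171800 to 178300 CPM (counts scaled to a common library size) in controls and 155900 to 181600 in HDAC3 LKO. In bulk liver RNA, fewer cells of a type and less RNA per cell cannot be told apart. Levels are given in CPM and differences as log2 fold changes, positive where HDAC3 LKO was higher.

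Hdac3 itself was at 10.6, 7.46, 9.75 and 10.6 CPM in the 4 HDAC3 LKO livers and at 34.3 to 40.7 (median 36.5) in the 6 controls. The groups did not overlap, and every knockout library matched its label. The log2 fold change was -1.95 (SE 0.11, adjusted p = 2.4e-09). Counts per transcript do not show which exons the reads came from, and whether the remaining transcripts came from other cell types or from hepatocytes that kept the gene was not tested.

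No partner of HDAC3 in its corepressor complex was called lower. Of 9 tested genes of the complex, 2 were higher, and Hdac3 was the 1 lower, beside 7.88% higher and 6% lower among all 12009 genes. Tbl1xr1, a WD40-repeat subunit that exchanges corepressors for coactivators, was at 185, 149, 181 and 182 CPM against 65.2 to 83.9 (median 79.2) in controls, at 1.18 (SE 0.08, adjusted p = 4.69e-08). Its relative Tbl1x was at 58.9, 63.9, 77.8 and 55.1 CPM against 36 to 45.6 (median 42.3), at 0.63 (SE 0.1, adjusted p = 0.00025). Both were above all controls in all 4 livers, and both were higher in Double LKO than in SCAP LKO, at 1.46 and 0.58. Ncor1, the scaffold that binds HDAC3, was at -0.03 (adjusted p = 0.884). Among 17 other deacetylase genes 2 were higher and 1 lower, the lower one not without HDAC3-floxed GFP replicate 2 or HDAC3 LKO replicate 1 or 2. Hdac5, a class IIa deacetylase that binds the same complex, was at 53.2, 47.1, 54.1 and 61.2 CPM against 26.6 to 36.4 (median 30.6), at 0.80 (SE 0.11, adjusted p = 5.25e-05) and at 0.90 in Double LKO against SCAP LKO.

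Loss of HDAC3 was followed by many modest changes in both directions. At an adjusted p under 0.05, 946 of the 12009 genes (7.88%) rose with loss of HDAC3 and 720 (6%) fell, together 13.9%. Counts of list members given below are to be read beside these shares. At least a 1.5-fold change was seen in 446 of the higher and 227 of the lower genes, and at least a 2-fold change in 164 and 70. The median log2 fold change was 0.56 over the higher genes, -0.46 over the lower ones and -0.02 over all genes tested. In 725 of the higher and 466 of the lower genes no HDAC3 LKO library overlapped a control library. Among all genes tested the groups did not overlap in 12.9%, with HDAC3 LKO on the higher side in 7.49% and on the lower side in 5.4%. Many genes named below were chosen because their groups did not overlap or their p was low. Their separation therefore describes them and is no further test. Both counts were smaller when single HDAC3 LKO livers were left out. There were 665 higher and 421 lower genes without replicate 4 and 720 and 456 without replicate 1. Without replicate 2 there were 792 and 477, and without replicate 3 790 and 571. Fewer livers also make a given change harder to detect.

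Genes with many counts rose far more often than genes with few. When the tested genes were divided into 5 equal groups by mean CPM, the share called higher was 1.92% in the group with the fewest counts, then 3.7, 6.08 and 9.99%, and 17.7% in the group with the most. The share called lower went from 2.25 to 5.08, 6.92, 8.58 and 7.16%. More counts also make a given change easier to detect, so these shares depend on depth as well as on the change. The gene lists described below were not matched for mean CPM. The genes called higher held 14.3 to 15.5% of all counts in controls and 21.5 to 23.8% in HDAC3 LKO, and those called lower 6.28 to 6.94% and 3.78 to 4.48%. These shares describe genes chosen by this same contrast and are no test. Of the rise, the desaturase Scd1 alone went from 0.277 to 0.76% in controls to 1.13 to 2.09%.

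**Figure D1:**
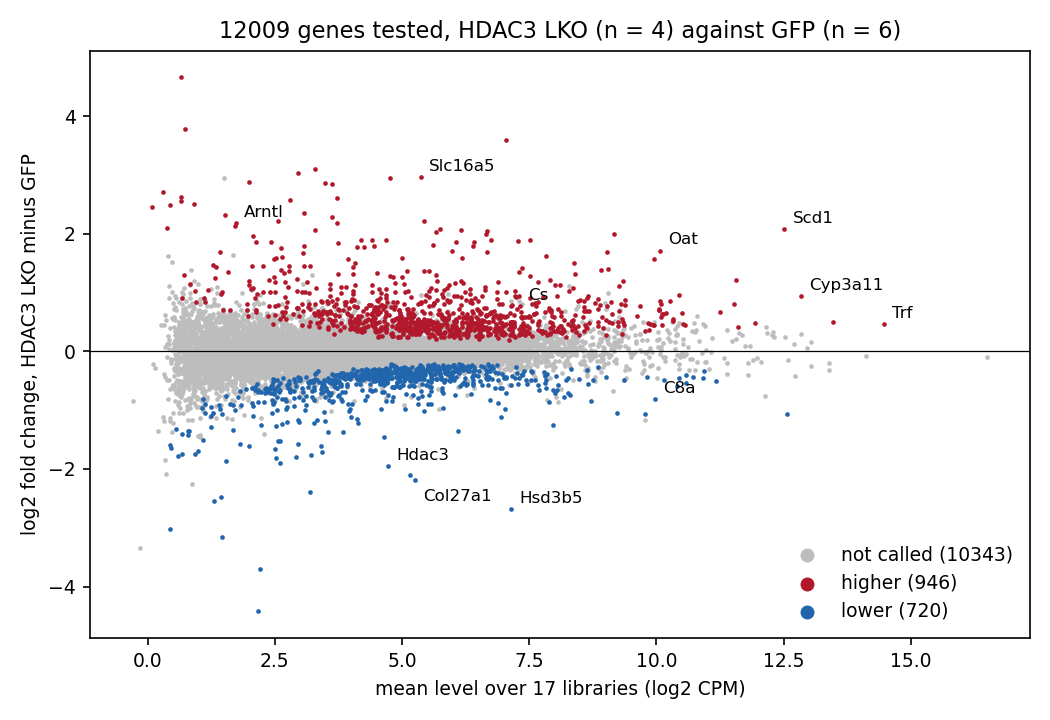
Log2 fold change between HDAC3 LKO (n = 4) and GFP control livers (n = 6) against the mean log2 CPM over the 17 libraries, with 1 point per gene for the 12009 genes tested. Red points are the 946 genes called higher and blue points the 720 called lower, and the right side of the plot, where counts are many, holds more red than blue points.

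The second pair of groups gave mostly the same directions. In Double LKO against SCAP LKO, 598 genes were higher (4.98%) and 361 lower (3.01%), together 7.99%, and 223 and 215 were lower without SCAP LKO replicate 1 and without Double LKO library 4. Of the 946 genes higher in HDAC3 LKO, 440 were also higher there (46.5% of 946 and 73.6% of 598), and 216 of the 720 lower genes were also lower (30% of 720 and 59.8% of 361). Counting the sign alone, 903 of the 946 and 686 of the 720 went the same way, while 45.8% of the 10343 genes not called had a positive sign. No gene passed the test of the difference between both comparisons (edgeR, lowest adjusted p = 0.126), where 601 genes had an unadjusted p under 0.05, DESeq2 gave 10 higher and 5 lower genes, and limma gave 1 and 4. The 1 gene called in opposite directions was Fads2, a fatty acid desaturase, at 0.63 (SE 0.12, adjusted p = 0.00213) in HDAC3 LKO against controls and -0.55 (adjusted p = 0.0324) in Double LKO against SCAP LKO. Its test of the difference gave an adjusted p of 0.126, and its second call was lost without SCAP LKO replicate 1 or 4 or Double LKO library 3 or 4 (adjusted p = 0.0587 to 0.105).

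**Figure D2:**
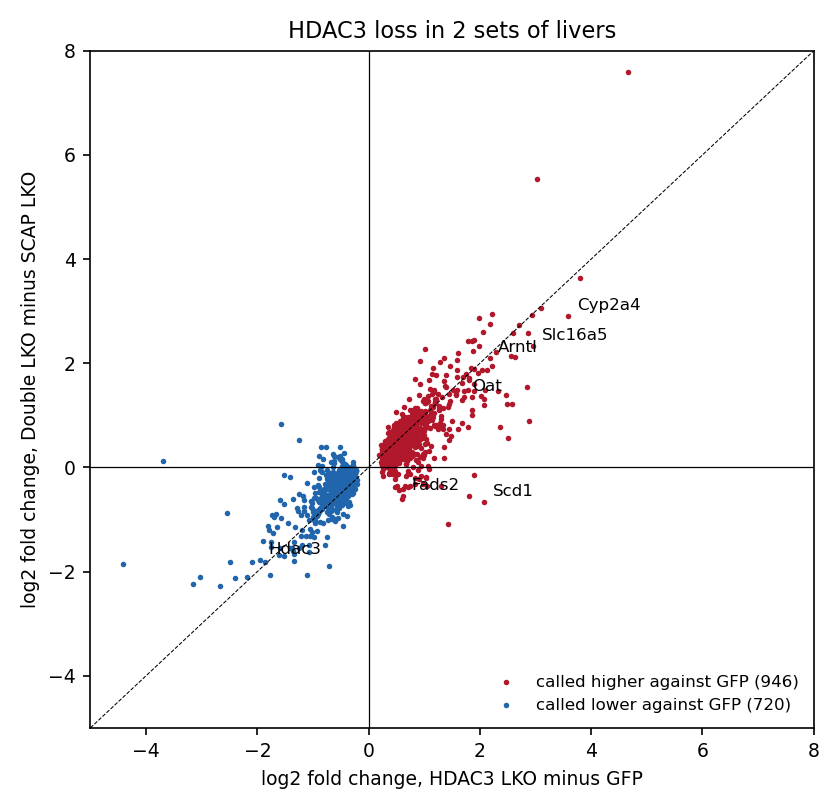
Log2 fold change of each of the 1666 called genes in HDAC3 LKO against GFP controls (x axis) and in Double LKO against SCAP LKO livers (y axis), with the dashed line marking equal values. Most of the 946 genes called higher (red) and 720 called lower (blue) lie on the same side of 0 on both axes.

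Among genes outside lipid metabolism the highest folds included transporters and regulators. Slc16a5, a monocarboxylate transporter, was at 69, 86.4, 56.6 and 73.4 CPM in HDAC3 LKO and at 7.01 to 12.4 (median 8.84) in controls, a log2 fold change of 2.96 (SE 0.2, adjusted p = 3.33e-08). All 4 knockout livers stood well above all controls. Aqp8, a water channel of the hepatocyte, was at 144, 108, 76.3 and 155 CPM against 16.5 to 36.4 (median 30.4), at 2.06 (SE 0.26, adjusted p = 3.58e-05). Clstn3, a calsyntenin, was at 29.8, 16, 17.2 and 37 CPM against 3.99 to 6.17 (median 5.47), at 2.29 (SE 0.27, adjusted p = 2.13e-05). In both genes the lowest knockout library was far above the highest control. Arid3a, a DNA-binding protein first known from B cells, rose by 1.96 and the carboxylesterase Ces2c by 1.90. Slc16a5, Aqp8, Clstn3 and Arid3a were also higher in Double LKO than in SCAP LKO, at 2.34, 2.60, 2.22 and 1.81.

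Arntl encodes BMAL1, the clock activator that REV-ERB alpha represses. It was at 5.22, 4.13, 7.05 and 5.9 CPM in HDAC3 LKO and at 0.639 to 1.66 (median 1.1) in controls, with no overlap (2.18, SE 0.24, adjusted p = 1.22e-05). REV-ERB alpha binds the RORE. The letters AGGTCA preceded directly by AANT, where N is any base, were searched on both strands of RefSeq promoters (GRCm38.p6, 250 bases before to 50 after a start site). They are in 70 of 27021 promoters (0.259%) and in 19 of the 9558 that were matched for genes tested (0.199%). Of these 19 genes 6 were higher, 11 were not called, and 2, Kdm4c at -0.46 and Macrod2 at -1.04, were lower, the latter not without SCAP-floxed GFP replicate 2 or any 1 of the 4 HDAC3 LKO libraries. Among all genes tested 7.88% were higher and 6% lower. Only 79.6% of the genes tested were matched to a promoter (79.7% of higher, 79.6% of lower and 79.6% of uncalled genes). Motifs named E-box, ARE, DR1 and STAT5 were searched in the same promoters. They were in 10.7, 15.8, 0.133 and 8.75% of matched higher genes and in 9.075, 15.5, 0 and 10.6% of lower ones. Among all matched genes the shares were 11.9, 16.8, 0.063 and 8.485%. The RORE letters were in 0.796% of higher, 0.349% of lower and 0.134% of uncalled genes. No test of called against uncalled genes was made for any of these motifs. Of the 6 higher genes with the RORE letters, the promoters of the 4 also higher in the second comparison are shown, with these letters in capitals. Each is given from 5′ to 3′ along the strand named.
Arntl promoter, chr7:113207261-113207560, plus strand: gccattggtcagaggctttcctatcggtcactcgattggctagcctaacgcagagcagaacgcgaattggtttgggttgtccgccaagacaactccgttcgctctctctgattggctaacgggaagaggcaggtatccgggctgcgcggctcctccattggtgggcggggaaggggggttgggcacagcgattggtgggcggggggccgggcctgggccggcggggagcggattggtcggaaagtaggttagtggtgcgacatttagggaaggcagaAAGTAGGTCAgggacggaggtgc
Tjp3 promoter, chr10:81291532-81291831, minus strand: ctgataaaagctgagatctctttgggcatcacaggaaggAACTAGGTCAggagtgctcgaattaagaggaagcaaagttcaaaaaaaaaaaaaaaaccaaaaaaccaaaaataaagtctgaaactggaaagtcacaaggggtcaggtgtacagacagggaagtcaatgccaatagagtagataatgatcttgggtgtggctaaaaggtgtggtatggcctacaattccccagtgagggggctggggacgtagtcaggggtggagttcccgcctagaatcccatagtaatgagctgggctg
Cyp3a11 promoter, chr5:145879805-145880104, minus strand: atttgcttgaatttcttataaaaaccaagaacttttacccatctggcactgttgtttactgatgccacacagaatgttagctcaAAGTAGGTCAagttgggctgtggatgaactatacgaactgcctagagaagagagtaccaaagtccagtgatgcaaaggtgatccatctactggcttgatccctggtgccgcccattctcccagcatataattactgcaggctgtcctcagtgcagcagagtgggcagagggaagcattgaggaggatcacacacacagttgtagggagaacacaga
Aifm2 promoter, chr10:61720399-61720698, plus strand: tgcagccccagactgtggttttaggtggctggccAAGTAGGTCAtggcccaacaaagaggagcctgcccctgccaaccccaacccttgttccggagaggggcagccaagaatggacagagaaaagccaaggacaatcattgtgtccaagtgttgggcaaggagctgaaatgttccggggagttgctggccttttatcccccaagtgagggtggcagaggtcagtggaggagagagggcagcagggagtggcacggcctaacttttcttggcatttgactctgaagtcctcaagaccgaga
The match is a description of letters and not of binding. Tjp3, the tight junction protein ZO-3, was at 17.1, 13.9, 16.6 and 22 CPM against 6.81 to 10 (median 7.5), at 1.14 (SE 0.18, adjusted p = 0.00023). Cyp3a11, the main drug-oxidizing P450 of mouse liver, was at 9519, 8275, 7583 and 10780 CPM against 3592 to 5814 (median 4581), at 0.95 (SE 0.16, adjusted p = 0.000672). It has close relatives that can share reads. Aifm2, an oxidoreductase also called FSP1 that protects membrane lipids from oxidation, was at 66.1, 67.7, 58.3 and 65.5 CPM against 29.8 to 37.4 (median 33.5), at 0.93 (SE 0.08, adjusted p = 7.42e-07). None of these 3 genes overlapped between groups. Between Double LKO and SCAP LKO, Arntl was at 2.10, Tjp3 at 0.91, Cyp3a11 at 0.85 and Aifm2 at 0.76, all called, that of Cyp3a11 only with Double LKO library 3 in the fit (0.67 and adjusted p = 0.06 without it).

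Of 21 tested genes of the core clock 4 were higher (19%) and 2 lower (9.52%), beside 7.88 and 6% of all genes (median -0.01). The higher genes were 2 without HDAC3 LKO replicate 2. The lower genes were 4 without Double LKO library 2 and 1 without HDAC3-floxed GFP replicate 2, SCAP-floxed GFP replicate 1 or any 1 of the 4 HDAC3 LKO libraries. Clock, the partner of BMAL1, was at 85.8, 75.2, 97.3 and 93.8 CPM against 42.4 to 61.3 (median 56.6), at 0.71 (SE 0.11, adjusted p = 0.000145). Per2, a repressor within the clock, was at 40.9, 45.3, 48.5 and 42.1 CPM against 52.3 to 90.4 (median 65.1), at -0.62 (SE 0.15, adjusted p = 0.0081). Each separated the groups fully. The labels give no hour at which the livers were taken, and its part in the clock genes was not tested.

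**Figure D3:**
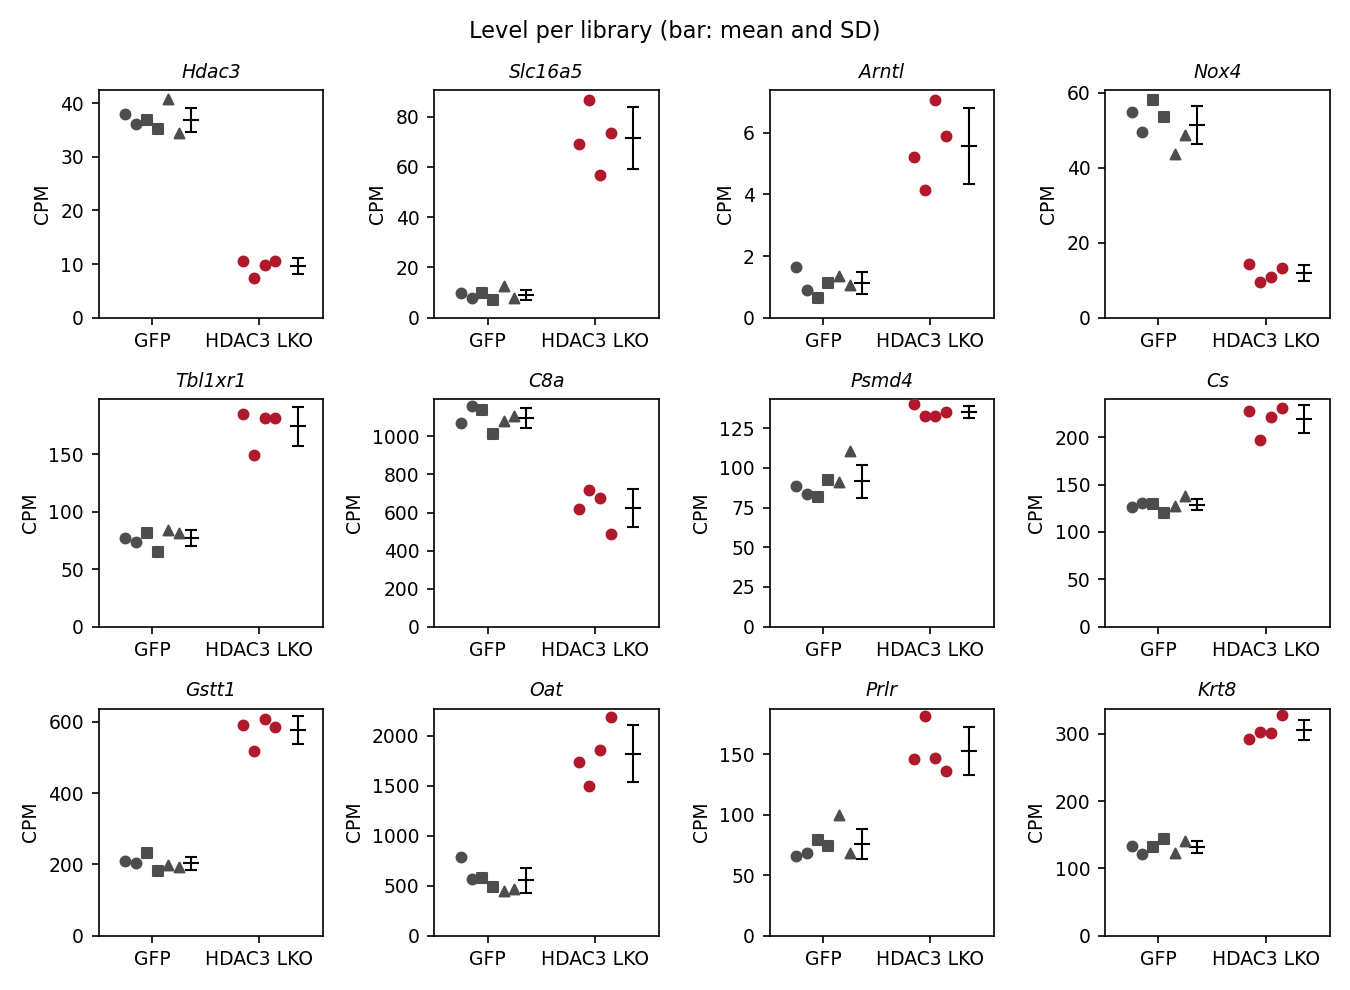
CPM of 12 genes in each library, with GFP controls in grey (circles HDAC3 floxed, squares SCAP floxed, triangles double floxed) and HDAC3 LKO in red, and the mean and SD of each group beside the points. In all 12 genes the 4 HDAC3 LKO libraries lie wholly above or wholly below the 6 controls, as with 56.6 to 86.4 against 7.01 to 12.4 CPM for Slc16a5. Named genes were chosen in part for such separation or for a low p, so it is no test.

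Genes of the proteasome, the protease that degrades ubiquitin-tagged proteins, rose together by small amounts. Of 46 tested genes 23 were higher and none lower, beside 7.88 and 6% of all genes, and their median log2 fold change was 0.27 against -0.02 over all genes. In the core particle these were 5 of 7 alpha subunit genes (Psma) and 5 of 10 beta subunit genes (Psmb). In the regulatory particle they were 4 of 6 ATPase genes (Psmc) and 8 of 14 non-ATPase genes (Psmd). Psmd4, a ubiquitin receptor, was at 140, 133, 133 and 135 CPM against 82 to 111 (median 89.8), at 0.56 (SE 0.08, adjusted p = 8.85e-05). Psma1, an alpha subunit, was at 124, 116, 105 and 112 CPM against 67.9 to 87.3 (median 79.3), at 0.54 (SE 0.08, adjusted p = 0.000121). Neither overlapped between groups. Psme1, of the PA28 activator, rose by 0.52. Psme4, the activator PA200 and the uncalled gene with the most counts, was at 0.02 (adjusted p = 0.892). The subunits of the immunoproteasome Psmb8, Psmb9 and Psmb10 were at 0.22, 0.03 and 0.26 (adjusted p = 0.382, 0.947 and 0.171). Without SCAP in either group, 19 of the 46 genes were higher in Double LKO and none lower, with a median of 0.27. Psmd4 was at 0.50 and Psme1 at 0.48 there.

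**Figure D4:**
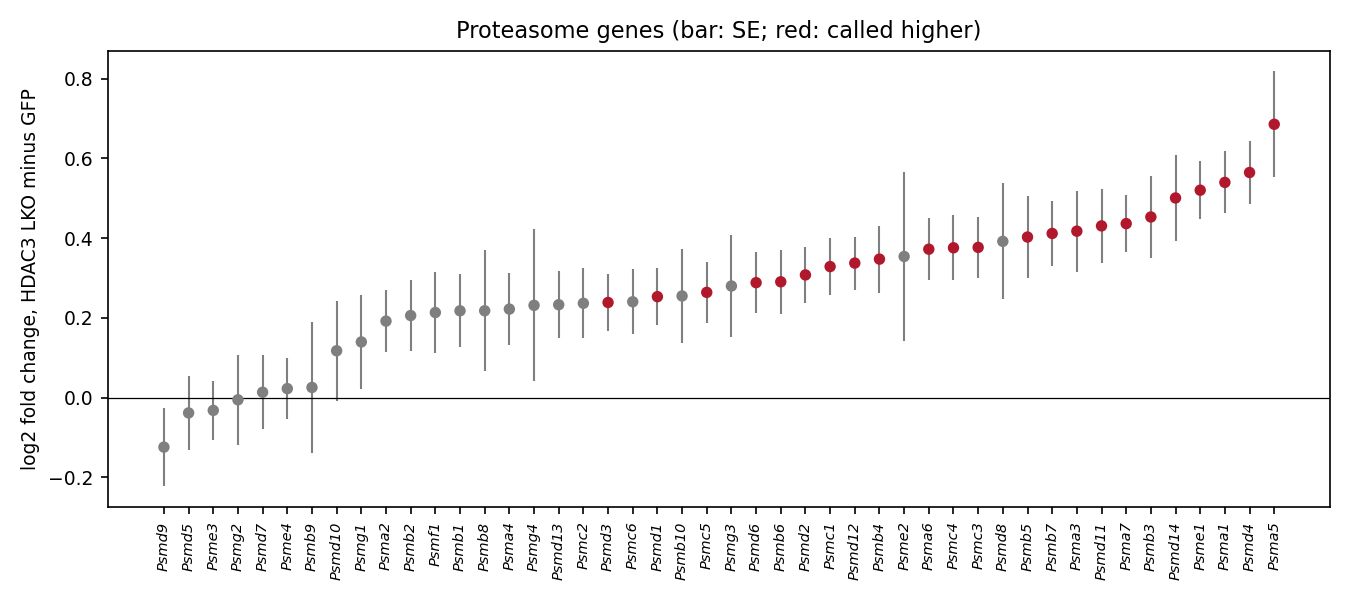
Log2 fold change and its SE for the 46 tested genes of the proteasome in HDAC3 LKO against GFP controls, in order of size. The 23 genes called higher (red) lie to the right, 42 of the 46 values are above 0, and none was called lower.

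Enzymes of the tricarboxylic acid (TCA) cycle and of pyruvate entry, which supply mitochondria with reducing power, were often higher. Of 20 genes 11 were higher and none lower, all 20 values were above 0, and the median was 0.39. Citrate synthase, Cs, was at 228, 198, 221 and 230 CPM against 121 to 138 (median 128), at 0.77 (SE 0.07, adjusted p = 7.42e-07). All 4 livers were far above the spread of controls. Suclg2, a subunit of succinate-CoA ligase, rose by 0.64. Of the 20, 5 were higher in Double LKO than in SCAP LKO, among them Cs at 0.74.

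Of 41 complex I genes 4 were higher (9.76%, beside 7.88% of all genes, 37 values above 0, median 0.15), of 12 cytochrome c oxidase genes 1 (8.33%), of 16 ATP synthase genes 2 and of 74 mitochondrial ribosomal protein genes 12 (58 above 0, median 0.15), with none lower. Ndufa7 of complex I rose by 0.41 (SE 0.1), and the ATP synthase subunit Atp5b was at 0.3 (adjusted p = 0.0688). The medians for Double LKO against SCAP LKO were -0.00 for complex I, -0.03 for the oxidase, 0.01 for ATP synthase and 0.04 for mitochondrial ribosomes. None of these lists was matched for level, and in the fifth of genes with the most counts 17.7% were higher. The list counts rested on single libraries. Without HDAC3 LKO replicate 1, HDAC3-floxed GFP replicate 2 or SCAP-floxed GFP replicate 2, 5 mitochondrial ribosomal genes were higher, and without HDAC3 LKO replicate 2, 3 or 4 there were 6, 6 and 7. For complex I the count was 8 without HDAC3-floxed GFP replicate 1 and 2 without HDAC3 LKO replicate 1, 2 or 3 or any control except HDAC3-floxed GFP replicate 1 and SCAP-floxed GFP replicate 1. It ranged from 0 to 2 for the oxidase and from 0 to 5 for ATP synthase. Among 37 mitochondrial carriers 10 were higher and none lower. Slc25a10, the dicarboxylate carrier, was at 507, 493, 429 and 623 CPM against 186 to 225 (median 206), at 1.31 (SE 0.11, adjusted p = 5.19e-07), and Slc25a45 rose by 1.26.

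Enzymes that modify drugs, hormones and bilirubin changed in large numbers. Of 18 tested UDP-glucuronosyltransferase genes 12 were higher and none lower (median 0.64). All 8 Ugt1a genes are among the 12, and since these are transcripts of 1 locus that share exons, they are not 8 separate results. Ugt1a9 was at 1668, 1479, 1606 and 1746 CPM against 834 to 963 (median 881), at 0.86. Among 19 glutathione transferases 10 were higher and 2 lower, the latter being Gstp1 and its near copy Gstp2. Gstt1, a theta-class enzyme, was at 592, 518, 607 and 587 CPM against 181 to 231 (median 201), at 1.51 (SE 0.14, adjusted p = 2.1e-06), with no overlap. Gstm3 was at 1.89. It has close relatives in the mu class. Sult1a1, a phenol sulfotransferase, rose by 1.12.

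Of 70 cytochrome P450 genes 23 were higher and 3 lower (median 0.28). The Cyp2a, Cyp2c and Cyp3a subfamilies, which oxidize drugs and steroids and whose members are so alike that reads can be shared, had 13 higher and 1 lower of 25 tested. Over the family 1 was lower without SCAP-floxed GFP replicate 1 or 2 or HDAC3 LKO replicate 3 or 4, and 8 without Double LKO library 2. Cyp2a5 was at 3485, 3598, 5207 and 5339 CPM against 1204 to 2273 (median 1980), at 1.21. Cyp39a1, an oxysterol hydroxylase, fell by 1.37. Cyp2e1, an ethanol-oxidizing P450 and the uncalled gene of the family with the most counts, was at 0.29 (adjusted p = 0.214). Cyp2a4 rested on 1 liver, with 1205 CPM in HDAC3 LKO replicate 2 and 92.1, 10.4 and 43.3 in the others against 4.22 to 106 (median 16.1) in controls. Without that liver its log2 fold change went from 3.59 (adjusted p = 0.0407) to 0.84 (adjusted p = 0.676), and its call was also lost without 5 of the controls or SCAP LKO replicate 1, each left out alone (adjusted p = 0.0506 to 0.084).

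Some antioxidant and glutathione genes were higher as well. Of 25 genes of the NRF2 and oxidative stress list 9 were higher, 2 lower and 14 not called (median 0.36), and of 17 glutathione metabolism genes 8 were higher, none lower and 9 not called (median 0.28). Without HDAC3 LKO replicate 4 these counts of higher genes were 5 and 5, and the second was also 5 without HDAC3 LKO replicate 1, HDAC3-floxed GFP replicate 2 or SCAP-floxed GFP replicate 2. Txn1, thioredoxin, was at 200, 168, 200 and 204 CPM against 107 to 140 (median 131), at 0.58 (SE 0.08, adjusted p = 8.85e-05). Ggt6, a gamma-glutamyltransferase relative, was at 34.7, 43.2, 31.3 and 34.2 CPM against 11.6 to 19.6 (median 13.9), at 1.34 (SE 0.14, adjusted p = 6.67e-06). The groups did not overlap in either gene. Prdx1, a peroxiredoxin, rose by 0.44. Between Double LKO and SCAP LKO, Txn1 was at 0.55 and Ggt6 at 1.13, both called.

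Genes of bile acid handling moved both ways. Of 30 tested genes 8 were higher (26.7%) and 3 lower (10%), beside 7.88 and 6% of all genes (median 0.09). The 10% lower is not far from the share of all genes. Without HDAC3 LKO replicate 1 or 4, 5 were higher. Export pumps rose: Abcb11, the bile salt pump, was at 893, 847, 1092 and 1037 CPM against 495 to 660 (median 542), at 0.80 (SE 0.14, adjusted p = 0.000803). Abcb4, which moves phosphatidylcholine into bile, was at 697, 509, 685 and 692 CPM against 322 to 444 (median 373), at 0.77 (SE 0.12, adjusted p = 0.000206). The synthetic enzyme Cyp27a1, a sterol hydroxylase, rose by 0.71, while Cyp39a1 and Slco1a1 are among the 3 lower genes. All these groups of libraries were apart. Of 19 retinoid genes 4 were higher (21.1%) and 1 lower (5.26%), with 3 lower without Double LKO library 2. Rdh16, a retinol dehydrogenase, was at 1.34 (SE 0.16, adjusted p = 1.8e-05).

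**Figure D5:**
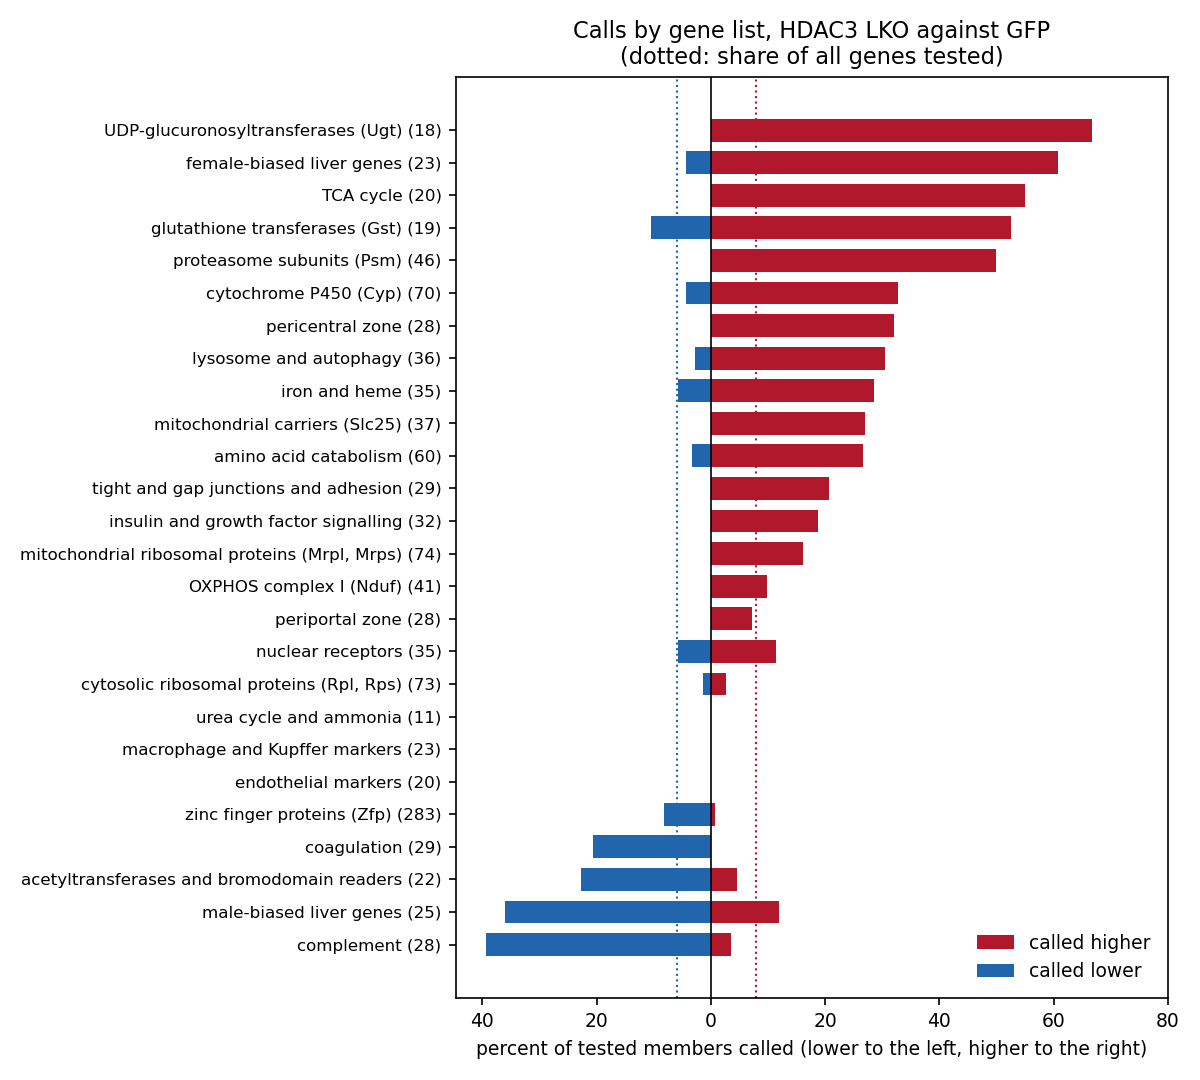
Percent of tested members called higher (red, to the right) and lower (blue, to the left) in HDAC3 LKO against GFP controls for 26 lists, with the number tested in brackets and dotted lines at the share of all genes tested, 7.88% higher and 6% lower. Detoxifying enzymes, female-biased genes, TCA cycle and proteasome genes reach furthest to the right, and complement and male-biased genes furthest to the left.

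Several plasma proteins of the complement cascade, which marks and lyses microbes, fell. Of 28 complement genes 11 were lower and 1 higher (median -0.30), beside 6% lower among all genes. C8a, of the membrane attack complex, was at 616, 716, 674 and 485 CPM against 1014 to 1160 (median 1093), at -0.81 (SE 0.12, adjusted p = 0.000137). C1s, a protease that starts the classical pathway, was at 309, 231, 306 and 270 CPM against 466 to 560 (median 494), at -0.84 (SE 0.1, adjusted p = 2.13e-05). Neither gene overlapped between groups. C6 fell by 0.71, Hc (complement C5) by 0.58 and Masp2, a protease of the lectin pathway, by 0.54. C3, the uncalled gene with the most counts, was at -0.31 (adjusted p = 0.253). Without HDAC3 LKO replicate 4, 7 genes were lower. Of the 28, 4 were lower in Double LKO than in SCAP LKO, among them C1s at -0.71 and C8a at -0.66.

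The 1 higher complement gene was Cfd, factor D, known in mice as an adipocyte product. It was at 0.972, 1.33, 0.622 and 11.6 CPM against 0 to 0.379, or 8, 10, 3 and 57 counts against 0 to 4, so that replicate 4 held most of the signal, and without that liver too few counts were left for the test. Double LKO libraries held 22, 39 and 20 counts of Cfd and the 4 SCAP LKO libraries 0. Against HDAC3-floxed, SCAP-floxed or double-floxed controls alone Cfd was not called (adjusted p = 0.117, 0.301 and 0.165). The fat cell genes Adipoq, Lep, Retn and Plin1 had 0 or 1 count in every library, and the source of the Cfd counts was not tested. Of 29 coagulation genes 6 were lower (20.7%, beside 6% of all genes) and none higher, and 3 were lower without HDAC3 LKO replicate 1 or 4. F9, coagulation factor IX, was at 123, 130, 133 and 125 CPM against 157 to 201 (median 169), at -0.45 (SE 0.1, adjusted p = 0.00349). F13b fell by 0.57 and Proz, protein Z, by 0.46. In contrast Serpina7, the thyroxine-binding globulin, was at 205, 205, 144 and 196 CPM against 14 to 83.6 (median 49.8), at 1.87 (SE 0.36, adjusted p = 0.0015).

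Many genes known to differ between the sexes in mouse liver, though not all, moved away from the male pattern in these Y-carrying livers. In male mice pulses of growth hormone, acting through STAT5, keep up male-biased genes and hold down female-biased ones. Of 23 tested genes listed as female-biased 14 were higher, 1 lower and 8 not called (median 1.01). Of 25 listed as male-biased 9 were lower, 3 higher and 13 not called (median -0.71). Of the same lists, 6 female-biased genes were higher and 1 lower in Double LKO than in SCAP LKO, and 1 male-biased gene was higher and 9 lower. The female-biased count was 8 without HDAC3 LKO replicate 4. Of 20 tested major urinary protein genes none was called (median -0.23), and 2 were lower in Double LKO than in SCAP LKO (median 0.05). Nt5e, the female-biased ecto-nucleotidase CD73, was at 22.1, 23.3, 20.5 and 33 CPM against 6.08 to 10.9 (median 8.13), at 1.58. Atp6v0d2, a proton pump subunit, was at 4.13, 16.9, 5.39 and 8.54 CPM against 0.528 to 4.26 (median 2.05), at 1.86 (SE 0.39, adjusted p = 0.00304), with the lowest knockout library below the highest control.

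Of the male-biased genes, Hsd3b5, a steroid dehydrogenase, was at 46.8, 20.4, 65.5 and 14.2 CPM against 187 to 268 (median 238), at -2.68 (SE 0.56, adjusted p = 0.00317). Nox4, an NADPH oxidase, was at 14.2, 9.59, 10.8 and 13.2 CPM against 43.7 to 58.1 (median 51.4), at -2.10 (SE 0.2, adjusted p = 3.02e-06). Slco1a1, an organic anion transporter, was at 441, 301, 420 and 244 CPM against 575 to 826 (median 737), at -1.05. None of these 3 overlapped. Gstp1, which shares reads with Gstp2, fell by 1.07.

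The prolactin receptor gene and the STAT5 genes were higher as well, and any part of theirs in this pattern was not tested. Prlr, the prolactin receptor and itself female-biased, was at 146, 182, 147 and 136 CPM against 66 to 99.6 (median 71.6), at 1.01 (SE 0.12, adjusted p = 2.78e-05). Stat5a was at 29.9, 23.2, 28.4 and 32.3 CPM against 9.93 to 16.5 (median 15.3), at 1.00 (SE 0.13, adjusted p = 3.74e-05), and its near relative Stat5b rose by 0.65. The 3 genes were also higher in Double LKO than in SCAP LKO, at 1.23, 1.00 and 0.52. They are among 6 higher and 0 lower of 32 genes of insulin and growth factor signalling, a count that was 3 without SCAP-floxed GFP replicate 2.

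Among amino acid enzymes and genes of the zone around the central vein more were higher than lower. Of 60 amino acid catabolism genes 16 were higher (26.7%) and 2 lower (3.33%), beside 7.88 and 6% of all genes (median 0.37). The higher genes were 10 without HDAC3 LKO replicate 4 and 26 without Double LKO library 2. In the second comparison 3 were higher and 2 lower. Oat, ornithine aminotransferase, was at 1743, 1500, 1855 and 2187 CPM against 450 to 786 (median 526), at 1.71 (SE 0.17, adjusted p = 3.02e-06). Cbs, which starts the conversion of homocysteine to cysteine, was at 581, 743, 627 and 559 CPM against 333 to 379 (median 366), at 0.79. Both separated the groups fully. Gnmt, a glycine methyltransferase, rose by 0.95, Csad, an enzyme of taurine synthesis, by 1.39, and Kynu, of tryptophan breakdown, by 0.73. Prodh2, which breaks down hydroxyproline, fell by 0.98.

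Of 28 pericentral genes 9 were higher (32.1%, beside 7.88% of all genes) and none lower (median 0.25). The higher genes include Oat, Cyp2a5, Csad and Aldh3a2, an aldehyde dehydrogenase at 1.11. Glul, the glutamine synthetase that marks the innermost layer, was at 1180, 644, 1394 and 1351 CPM against 898 to 1216 (median 932), overlapping, at 0.19 (adjusted p = 0.506). Of 28 periportal genes 2 were higher (7.14%, near the share of all genes), with a median of 0.36, and of -0.07 in Double LKO against SCAP LKO. None was called higher without HDAC3 LKO replicate 2, and 9 without Double LKO library 2. None of 11 urea cycle genes was called, with Cps1, its entry enzyme, at 0.24 (adjusted p = 0.582).

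Some lysosomal and iron genes were higher and few were lower. Of 36 lysosome and autophagy genes 11 were higher (30.6%), 1 lower (2.78%) and 24 not called (median 0.17). Among all genes 7.88% were higher and 6% lower. Lipa, the acid lipase, was at 406, 414, 317 and 386 CPM against 166 to 247 (median 193), at 0.95 (SE 0.11, adjusted p = 1.8e-05). The autophagy receptor Sqstm1 was at 544, 565, 570 and 570 CPM against 257 to 372 (median 288), at 0.89. In each gene the lowest knockout library was above the highest control. Ctsb, a cathepsin, rose by 0.55. Between Double LKO and SCAP LKO 5 were higher and 2 lower, with Lipa at 1.09 and Sqstm1 at 1.08.

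Of 35 iron and heme genes 10 were higher (28.6%, beside 7.88% of all genes), 2 lower (5.71%, beside 6%) and 23 not called (median 0.20). Without HDAC3 LKO replicate 2 or 3, 1 was lower. Hfe2, the hemojuvelin that drives hepcidin expression, was at 77.4, 70.2, 75.3 and 83 CPM against 25.2 to 45.1 (median 32.7), at 1.20 (SE 0.12, adjusted p = 4.29e-06). Trf, transferrin, was at 24750, 29642, 27561 and 24529 CPM against 17228 to 21344 (median 19808), at 0.46 (SE 0.11, adjusted p = 0.0092). Again neither overlapped. Ftl1, a ferritin light chain with many processed copies in the genome, rose by 0.65. Alas2, the heme enzyme of red cell precursors, was at 40.7, 56.3, 28.6 and 32.3 CPM against 78.5 to 119 (median 103), at -1.35 (SE 0.17, adjusted p = 3.58e-05). It was the 1 called gene of 6 tested erythroid markers. Of their log2 fold changes 4 were above 0 and 2 below (median 0.36), with a median of -0.44 in Double LKO against SCAP LKO. The summed level of the erythroid markers, Alas2 included, was 103.5 to 204.7 CPM in HDAC3 LKO and 165.3 to 213.8 in controls. The part of red cells in the Alas2 difference was not tested.

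Keratins of hepatocytes and some genes of tubulin and cell contacts were higher. Krt8 and Krt18, the keratin pair of hepatocytes, were the 2 higher genes of 4 tested keratins, and Krt23 was the 1 lower. Krt8 was at 292, 303, 301 and 327 CPM against 121 to 143 (median 133), at 1.21 (SE 0.22, adjusted p = 0.000982). Krt18 was at 331, 338, 347 and 332 CPM against 146 to 170 (median 151), at 1.13 (SE 0.24, adjusted p = 0.00341). The 4 knockout livers were close together in both genes. Neither gene was called against any 1 control line alone (adjusted p = 0.0523 to 0.159). Between Double LKO and SCAP LKO they were at 1.78 and 1.80. Krt23, at few counts, was at 0.85, 1.33, 0.207 and 0.407 CPM against 1.49 to 2.46 (median 1.84), at -1.32 (SE 0.41, adjusted p = 0.0369), and was not called without HDAC3 LKO replicate 1, 3 or 4 or replicate 1 of any of the 3 control lines. Of 29 actin and myosin genes 1 was higher (3.45%, beside 7.88% of all genes) and none lower. Of 10 tubulin genes 4 were higher and none lower, and 2 without HDAC3 LKO replicate 3. Of 29 junction and adhesion genes 6 were higher and none lower, and 3 without HDAC3 LKO replicate 4. Besides Tjp3 they include Cgn, cingulin of tight junctions, at 0.78.

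Among chromatin and transcription genes calls went in both directions, with more lower than higher in the Zfp family and among acetyltransferase and bromodomain genes. Of 283 genes of the Zfp zinc finger family 23 were lower and 2 higher (median -0.16, with 203 values below 0), and 11, 14 and 12 were lower without HDAC3 LKO replicate 1, 2 and 4. The 8.13% lower is near the 6% of all genes, and the 0.707% higher stands beside 7.88%. Zfp612 fell by 0.74 and Zfp110 by 0.47. Of 22 acetyltransferase and bromodomain genes 5 were lower (22.7%, beside 6% of all genes) and 1 higher, the latter not without HDAC3 LKO replicate 4. In this list 19 values were below 0 (median -0.18). Between Double LKO and SCAP LKO 2 of its genes were lower and none higher (median -0.04). Ep300, which encodes the acetyltransferase p300, was at 48.2, 45.3, 54.3 and 49.6 CPM against 58.9 to 77.1 (median 68.8), at -0.49 (SE 0.09, adjusted p = 0.000776), and its relative Crebbp fell by 0.48. Chd3, a remodeler of the NuRD complex, rose by 0.77. Of 44 chromatin remodelers and methyltransferases 2 were higher and 4 lower, and 1 to 3 and 1 to 7 when single libraries were left out. Of 55 liver transcription factors 7 were higher and 1 lower (median 0.05), with 4, 3 and 1 higher without HDAC3 LKO replicate 1, 3 and 4, and 2 lower without HDAC3 LKO replicate 3, SCAP-floxed GFP replicate 2 or Double LKO library 2. The lower one was Xbp1, a transcription factor of the unfolded protein response, at -0.48 (adjusted p = 0.00922). Of 35 nuclear receptor genes 4 were higher and 2 lower, and 1 was higher without HDAC3 LKO replicate 4 and 2 without replicate 1. Rara, the retinoic acid receptor alpha, was at 26.6, 24.8, 25.5 and 28.7 CPM against 12.9 to 20.9 (median 16.4), at 0.68 (SE 0.14, adjusted p = 0.00224). Hnf4a, the master regulator of hepatocytes, was at -0.03 (adjusted p = 0.919).

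Other genes that fell most included a collagen chain, regulators and enzymes. Col27a1, a collagen chain, was at 18.6, 9.72, 13.5 and 11.6 CPM against 46.8 to 94.4 (median 55), at -2.19 (SE 0.26, adjusted p = 2.08e-05). Aldoc, a fructose-bisphosphate aldolase better known from brain, was at 9.84, 6.79, 5.18 and 6.1 CPM against 14.3 to 25.5 (median 22.8), at -1.61 (SE 0.2, adjusted p = 3.58e-05). The control libraries stood above all knockout libraries in both. Capn3, a calpain better known from muscle, fell by 2.48, Cspg5 by 3.16, the WNT pathway modulator Dact1 by 1.80, the cochaperone Dnajc12 by 1.71 and Med12l, a relative of a Mediator subunit, by 1.66. Bdh2, a cytosolic hydroxybutyrate dehydrogenase, fell by 1.37 and the forkhead factor Foxp2 by 1.28. Acss3, a mitochondrial acyl-CoA synthetase, was at 58.5, 47, 45.8 and 73.2 CPM against 10.7 to 20.7 (median 14.6) and rose by 1.90.

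Most lists of basic cell functions and other cell types showed few calls, beside 7.88% higher and 6% lower among all genes. Of 73 cytosolic ribosomal protein genes 2 were higher and 1 lower (0 to 3 and 0 to 1 without a single library), and of 56 translation initiation factors 2 were higher (0 to 6, the last without HDAC3-floxed GFP replicate 1). Of 24 cell cycle genes 1 was higher and 1 lower (0 to 1 each). None of 20 tested endothelial, 23 macrophage and 5 cholangiocyte markers was called, and 1 of 18 stellate and fibroblast markers was higher. Their summed levels overlapped between groups: endothelial markers summed to 815.1 to 1026 CPM in controls and 788 to 960.3 in HDAC3 LKO, macrophage markers to 418.4 to 841.1 and 503.2 to 646.2, and stellate markers to 605.4 to 835.2 and 605 to 776.5. Cholangiocyte markers summed to 58.17 to 120.1 and 45.69 to 78.29. At few counts, neutrophil markers summed to 4.697 to 7.101 (median 5.70) and 2.103 to 4.855 (median 3.34), overlapping slightly. Lymphocyte markers, none tested, summed to 5.384 to 11.8 and 4.458 to 12.33. Of 31 unfolded protein response genes 3 were lower (9.68%, beside 6% of all genes) and none higher, with 21 values below 0 (median -0.18). Between Double LKO and SCAP LKO 2 of them were lower and none higher (median -0.24). Of 20 major urinary protein genes, which are nearly identical and share reads, none was called.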

How the data were processed

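RNA of 17 liver samples was analysed here, 10 of them in the main comparison. The deposited RNA table holds raw counts for each RefSeq transcript, whole numbers that the authors left unnormalized, as the values show. For the RNA samples the submitters' processing notes name edgeR and the build mm9, and what aligned and counted the reads is not given in those notes. The TruSeq kit named in the labels does not mark strand, so reads of overlapping genes cannot be told apart. The same deposited table holds the authors' own log2 fold changes and their FDR-adjusted p-values, per the file headers, and neither was used. Another 17 columns with values per sample were left aside. Of 28644 transcripts, the 22869 that the authors marked as 1 per gene were kept and 5775 left out. No peak list was used, because start sites on mm9 are not among the references used here, so the planned share of called genes near an HDAC3 peak and the promoters to be chosen by it are not given.

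The counts went into edgeR 4.0.16 (R 4.3.3) with TMM scaling, filterByExpr and quasi-likelihood F-tests, in 1 fit of 4 groups and 17 libraries. A gene was called when its p, adjusted by Benjamini and Hochberg over all 12009 genes tested, was under 0.05. Adjusted p-values in the text come from this edgeR fit unless another tool is named. The SE is the absolute log2 fold change over the square root of F and is approximate. The 6 controls formed 1 group because the submitters' design names GFP mice as controls. The fit was tested on simulated counts. Alternatives were DESeq2 1.42.0, limma 3.58.1 with voom quality weights, other scalings and filters, single control lines and leaving out each library. Replicates were not duplicates: over the 21 pairs compared, counts differed by more than sampling noise (chi-square per degree of freedom 5.34 to 28.4). Columns of Double LKO, SCAP-floxed and double-floxed samples are numbered otherwise than the sample titles, so these were used by group and carry the table's numbers. Separate mice are not stated in the labels for each sample, and the p-values then cover the spread between samples, which may be technical.

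The 53 lists and 29 symbol families hold the gene groups described. Of 1253 listed genes 1248 were in the table, 18 under a synonym in RefSeq (GRCm38.p6), and 1119 were tested. Lists are described by counts and medians, with no test. Comparison, lists and rule for named genes were chosen with earlier results of these data known, and the patterns for Rab and collagen families were narrowed after values were seen. The rule named Hdac3, 25 called genes at each end of the log2 fold changes (log2 CPM of at least 1, no overlap), 15 rises and 15 falls that were largest in mean CPM, and per list up to 4 called genes with the lowest p and the uncalled gene with the most counts. Provisional gene names were passed over, and not every gene under the rule is given. Named outside the rule, after their values were seen, were Cfd, C6, Nt5e, Kdm4c, Macrod2, Cyp2a4, Csad, Prodh2, Glul, Fads2, Aifm2, Atp6v0d2, Gstm3, Gstp2, the immunoproteasome genes and the fat cell genes.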

Additional observations from a re-analysis of the deposited data

Results flagged for a closer look

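Among 212 sets of values checked, each the CPM of 1 named gene in the 6 controls or the 4 HDAC3 LKO livers, 15 (7.08%) had 1 library far from the others, and chance gives about 1 in 20. HDAC3 LKO replicate 2 was the one set apart in 6 of them. There Cyp2a4 was at 1205 CPM (next library 92.1), Fads2 at 865 (next 564) and Sult1a1 at 518 (next 373), all highest, and Abcb4 at 509 CPM (next 685), Tbl1xr1 at 149 (next 181) and Txn1 at 168 (next 200), all lowest. In HDAC3 LKO replicate 4, Cfd was at 11.6 CPM (next 1.33). In HDAC3 LKO replicate 3, Serpina7 was at 144 CPM, below the next at 196. HDAC3-floxed GFP replicate 1, the deepest of these 10 libraries, was highest of the controls in C6 (446 CPM, next 348), Ces2c (88.4, next 54.8) and Oat (786, next 575). HDAC3-floxed GFP replicate 2 was lowest of the controls in Txn1 (107 CPM, next 131). SCAP-floxed GFP library 2 was highest of the controls in Macrod2 (3.79 CPM, next 2.39). In double-floxed GFP, library 1 had 106 CPM of Cyp2a4 (next 24.1) and library 2 had 111 CPM of Psmd4 (next 92.7). Without the library named, Cyp2a4 lost its call when HDAC3 LKO replicate 2 was left out and Macrod2 when SCAP-floxed GFP library 2 was, Cfd could not be tested, and the other genes kept theirs.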

How the results depend on the processing

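With the 10 libraries alone, other scalings, no count filter, DESeq2, limma or the most-counted transcript per gene, the counts of genes higher and lower stayed within 1.5 times of 946 and 720. Leaving out single libraries gave 665 to 1174 higher and 421 to 910 lower genes, 439 to 743 and 215 to 399 in Double LKO against SCAP LKO, 330 to 576 and 149 to 230 called in both, and 0 to 2 and 0 to 1 for the difference. With 1 control line of 2 libraries there were 397 and 249 genes (HDAC3 floxed), 333 and 171 (SCAP floxed) and 503 and 346 (double floxed). limma gave 1019 and 871 genes in the second comparison, 704 and 420 called in both, and 1 and 4 for the difference, where DESeq2 gave 10 and 5 and no count filter 2 lower genes. Same-numbered HDAC3 LKO and SCAP LKO libraries did not deviate together (correlations 0.0777, 0.0162, 0.108 and -0.0605), so the numbers do not pair them. With the replicate block on numbered libraries 499 genes were higher and 323 lower, and 653 and 426 without the block on the same libraries, a fit chosen after seeing the data. Of 97 named genes that were called, 21, 26 and 23 lost the call against HDAC3-floxed, SCAP-floxed and double-floxed controls alone. The block took it from 13, and the same libraries without the block from 8. Not called against any 1 line were Cfd, Cyp2a4, Krt8, Krt18, Trf, Fads2, Proz, F13b, Gstm3, Kdm4c and Macrod2. Ep300, Crebbp and Cyp27a1 were among those lost with the block (adjusted p = 0.108, 0.122 and 0.0926). Some values near 0 of uncalled genes changed sign. Psme4 was at -0.0020 with upper-quartile scaling, -0.064 with the block and -0.042 to 0.080 without single libraries. Hnf4a was at 0.068 against SCAP-floxed controls and -0.084 to 0.020 without single libraries. Ncor1 was at 0.080 against HDAC3-floxed controls, 0.043 with the block, 0.081 on the numbered libraries without it and -0.084 to 0.013 without single libraries. Glul and Cps1 were at -0.040 and -0.12 against HDAC3-floxed controls, -0.26 and -0.083 with the block, and -0.040 and -0.12 on the numbered libraries without it. The cause was not tested. Alternatives that needed peaks near start sites were not run. Depth limits calls among genes with few counts, and 4 and 6 livers limit them for genes that vary.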
